A study of Gallus gallus with 6 samples.

Results

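The 7 genes PAX5, SPI1, BCL6, RUNX1, POU2F1, ID3 and MYB encode transcription regulators that are grouped here as B cell identity factors. Not all of them are particular to B cells. Every array probe whose accession belonged to 1 of these genes was taken, which gave 16 probes of 43603 gene probes and 7 genes of 4932 that could be named. The cells were DT40, a chicken line that grew out of a virus-induced lymphoma of the bursa of Fabricius, the organ where birds form B cells. There were 3 cultures of wild-type DT40 and 3 of IRF4-deficient DT40, in which the gene for interferon regulatory factor 4 had been knocked out. All cultures were untreated and each was measured on its own one-colour array. How many knockout clones there were was not stated in the labels. The errors cover the spread between cultures and may not cover that between clones.

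PAX5 is the factor that commits lymphoid progenitors to the B lineage in mammals, and SPI1 encodes PU.1, an ETS-family factor that recruits IRF4 to composite DNA elements. RUNX1, POU2F1 (also called Oct-1) and MYB bind DNA of blood and lymphoid genes, while BCL6 is the repressor that holds the germinal centre programme and opposes plasma cell differentiation. ID3 has no DNA-binding region and works by trapping E proteins such as the product of TCF3 in inactive pairs.

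In the knockout, 4 of the 7 genes were higher and 3 were lower. ID3 moved most, at 5.00-fold lower by its brighter probe. MYB was 2.07-fold lower and RUNX1 2.07-fold higher, and the rises of SPI1, POU2F1 and PAX5 and the fall of BCL6 were each under 2-fold. All 16 probes were well above background on all 6 arrays, all 16 were called at a limma adjusted p under 0.05 and in all 16 the groups did not overlap. That has to be read against the whole array, where 70.1% of the 28761 tested probes were called (40.5% higher and 29.6% lower) and 75.5% of the probes with a value on every array had groups that did not overlap. Being called was common on these arrays, so the count alone says little about these genes. The median absolute log2 fold change was 0.80 over the member probes and 0.33 over all tested probes. Of the member probes, 2 rose and 4 fell by at least 2-fold, against 7.39% and 6.58% of tested probes. Those that rose were both RUNX1 probes, and those that fell were both ID3 probes and 2 of the MYB probes. Probes of a gene are repeat readings of that gene, so these counts and the median over member probes do not stand for separate genes.

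All levels below are log2 signals relative to the 75th percentile of the same array, so 0 is the level of that percentile. Fold changes are knockout over wild type, errors on means are SD with n = 3 arrays in each group, and errors on log2 fold changes are limma standard errors (SE). For every member probe, an exact two-sided permutation test gave p = 0.1, the smallest that 3 against 3 arrays allow. RNA came from whole cultures, so a lower signal from fewer expressing cells and one from less RNA per cell cannot be told apart.

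The arrays of a group correlated at r between 0.9971 and 0.9977 over tested probes and those of different groups between 0.9386 and 0.9397, and 62.4% to 68.2% of gene spots were well above background. IRF4 itself, the check on the labels, fell from 3.01 ± 0.13 to -1.21 ± 0.14 by its brighter probe (18.6-fold lower, limma adjusted p = 4.1e-07). Its dimmer probe did not rise well above background in the knockout arrays. All 10 of the B cell markers with a probe were well above background on all 6 arrays. Their summed signal was 198 to 218 times the 75th percentile in wild type and 251 to 261 times in the knockout. Most of that rise came from CD72 (9.24-fold higher). Of the 10, 4 were called higher, 3 lower (LYN by 1.94-fold, TNFRSF13C by 1.51-fold and PTPRC by 1.11-fold) and 3 neither. Among the higher was SH2D6, which was matched only as a synonym of BLNK. Among 8 myeloid markers, CD14, CSF3R and MARCO were not well above background on any array, and the summed signal was 0.783 to 0.849 in wild type and 0.459 to 0.573 in the knockout, where replicate 1 has no value for LYZ. Of the 5 tested, 1 was called higher and 3 lower. Among 8 T cell markers, CD4 and GATA3 were not well above background on any array, with sums of 65.8 to 68.4 and 67.8 to 81.4 that were nearly all CD3D (0.17, limma adjusted p = 0.073). The other 3 tested T cell markers were called lower, CD3E by 10.8-fold, CD8A by 2.19-fold and CD247 by 1.20-fold. The 4 plasma cell markers summed to 29.3 to 31.2 and 31.4 to 34.0, most of it XBP1, which was not called. Of the others, JCHAIN was higher, SDC1 fell 1.61-fold and CD38, with no knockout array well above background, was at least 8.28-fold lower. The 6 erythroid markers summed to 4.77 to 5.05 and 4.81 to 5.28, nearly all of it ALAS1, which was matched only as a synonym of the erythroid gene ALAS2. TAL1 did not stand well above background in any array, and of the 4 tested 1 was called higher (HBAD) and 1 lower (HBBA, matched only as a synonym of HBG2). Of 6 fibroblast markers, PDGFRA and THY1 were not well above background on any array, yet the sum went from between 0.337 and 0.359 to between 5.63 and 6.50, most of it from the collagen gene COL1A2 (18.9-fold higher). The part of these markers in the results on the 7 genes was not tested.

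PAX5 had a single probe (A_87_P053976). Its levels were -2.69, -2.77 and -2.76 in wild type and -2.40, -2.56 and -2.54 in the knockout. Each knockout array was above each wild-type array, by a small margin. The rise was 1.18-fold (log2 fold change 0.24 ± 0.06, limma adjusted p = 0.0084), below the median absolute change of the array. Within the 2 slides that carried 1 array of each group, the differences were 0.29 and 0.22. The call was lost (0.09, limma adjusted p = 0.19) once the median log2 fold change of PAX5's chromosome was subtracted.

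SPI1 also had a single probe (A_87_P008737). The wild-type levels were -0.53, -0.42 and -0.45, and the knockout levels 0.10, 0.27 and 0.23. The groups were well apart, with the knockout above the 75th percentile of its arrays and the wild type below it. The rise was 1.58-fold (log2 fold change 0.66 ± 0.06, limma adjusted p = 0.0001). The differences within the 2 shared slides were 0.63 and 0.68.

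RUNX1, which in mice is needed for the first blood stem cells and again in early B cells, rose by both of its probes. The brighter probe (A_87_P008696) stood at -1.31, -1.18 and -1.31 in wild type and at -0.19, -0.25 and -0.20 in the knockout. The dimmer probe (A_87_P109503) stood at -4.39, -4.53 and -4.41 in wild type and at -3.42, -3.47 and -3.37 in the knockout. On both probes the gap between the groups was several times the spread within either. The log2 fold changes were 1.05 ± 0.05 (2.07-fold, limma adjusted p = 7.4e-06) and 1.02 ± 0.05 (2.03-fold, limma adjusted p = 9.9e-06). The difference between the probes was 0.03 ± 0.08 (limma adjusted p = 0.85).

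POU2F1, an octamer-binding factor found in most cell types, rose by both probes but not by the same amount. Its brighter probe (A_87_P054386) read 1.76, 1.73 and 1.76 in wild type and 2.37, 2.26 and 2.35 in the knockout. Its dimmer probe (A_87_P109128) read -3.67, -3.64 and -3.59 in wild type and -3.20, -3.33 and -3.23 in the knockout. No wild-type array reached the lowest knockout array on either. The rises were 1.49-fold (log2 fold change 0.58 ± 0.04, limma adjusted p = 5.1e-05) and 1.30-fold (0.38 ± 0.05, limma adjusted p = 0.00061). The brighter probe's log2 fold change exceeded the dimmer one's by 0.20 ± 0.04 (limma adjusted p = 0.019 over 7928 probe pairs). This call was lost with replicate or slide as a fixed block, and without wild-type replicate 2 or 3 or knockout replicate 2 or 3 (limma adjusted p between 0.052 and 0.23).

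**Figure D1:**
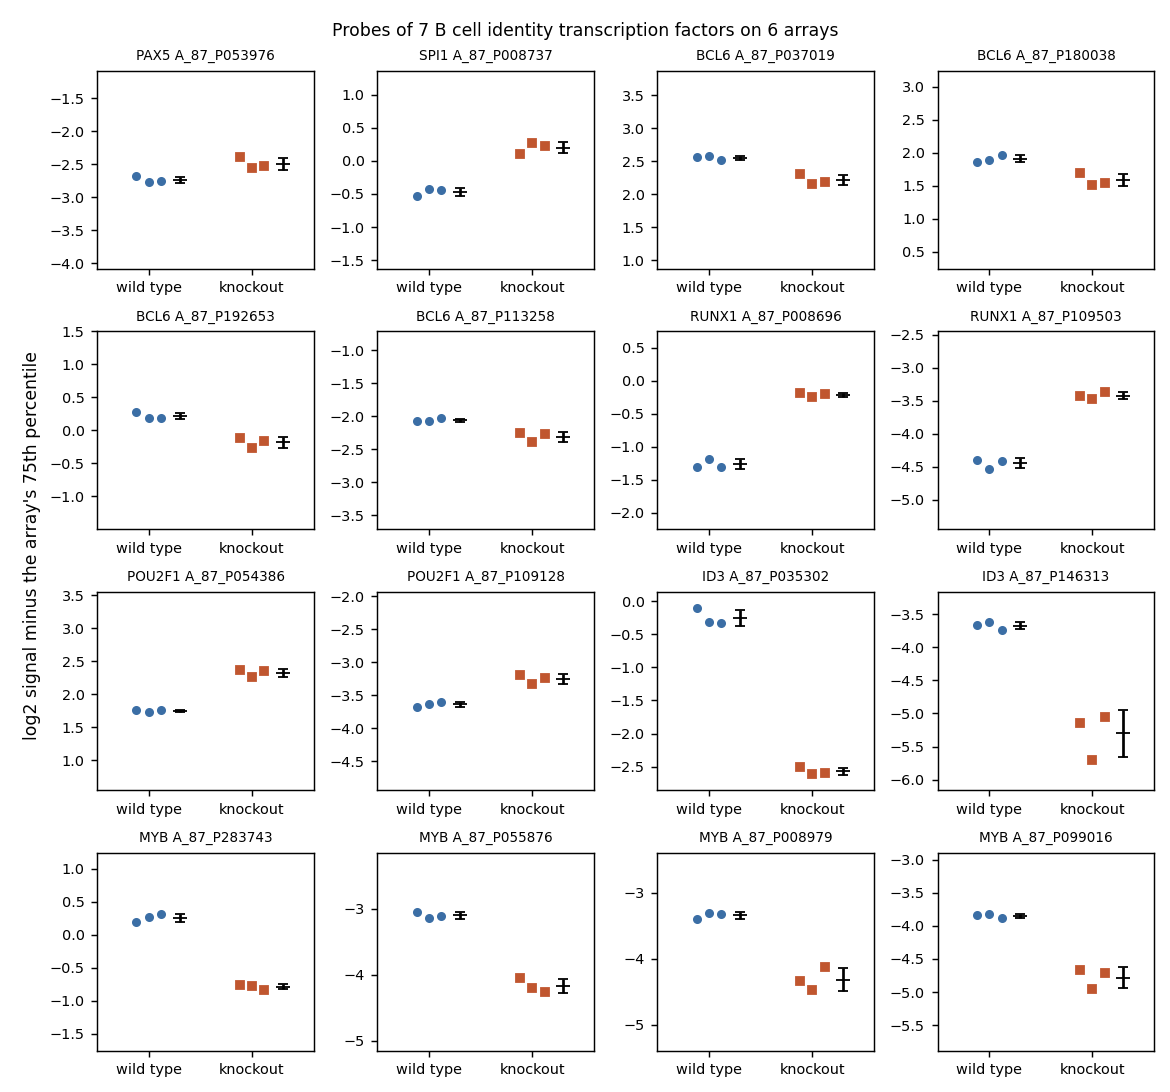
Log2 signal relative to the 75th percentile of each array for each of the 16 probes, with 1 point per array (3 wild type, 3 IRF4 knockout) and the mean with its SD beside the points. Each panel spans the same number of log2 units. In every panel the groups are separate, by the widest gap for the brighter ID3 probe and the narrowest for PAX5.

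BCL6 was lower in the knockout by all 4 of its probes. The brightest (A_87_P037019) gave 2.56, 2.58 and 2.52 in wild type and 2.31, 2.16 and 2.18 in the knockout. The next brightest (A_87_P180038) gave 1.87, 1.89 and 1.97 in wild type and 1.7, 1.52 and 1.55 in the knockout. On both, knockout replicate 1 lay nearest to the wild type, but below all of its arrays. The log2 fold changes of the 4 probes ran from -0.40 ± 0.06 to -0.25 ± 0.05, with limma adjusted p between 0.00086 and 0.0042, and that of the brightest was -0.34 ± 0.05 (1.26-fold lower, limma adjusted p = 0.0013). None of the 6 pairs of BCL6 probes differed at the threshold (limma adjusted p between 0.080 and 0.86). Within the shared slides, the brightest probe differed by -0.25 and -0.42. With slide as a fixed block, A_87_P180038 and A_87_P113258 lost their calls (limma adjusted p = 0.064 and 0.054). That block leaves only the shared slides to inform the comparison.

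The direction of BCL6 depended on what it was compared with. On its chromosome, 81 of 101 other tested named genes were called lower and 7 higher, with a median log2 fold change of -0.65, against 0.05 over all 3833 tested named genes. BCL6 had fallen less than 75 of those 101 genes. With the chromosome's median subtracted, its 4 probes were called higher, at 0.31, 0.33, 0.25 and 0.40. Of its 10 nearest tested named genes, 5 on each side, 8 were called lower and none higher. LPP, the nearest on the one side, had a log2 fold change of -0.72, and MASP1, on the other, -0.02 (limma adjusted p = 0.91).

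ID3 had the largest change of the 7. Its brighter probe (A_87_P035302) read -0.10, -0.31 and -0.33 in wild type and -2.51, -2.61 and -2.59 in the knockout. Its dimmer probe (A_87_P146313) read -3.66, -3.61 and -3.73 in wild type and -5.15, -5.71 and -5.05 in the knockout. The knockout arrays lay far below the wild-type arrays on both probes, and on the dimmer one knockout replicate 2 lay below the other two. The brighter probe fell 5.00-fold (log2 fold change -2.32 ± 0.07, limma adjusted p = 1.3e-06) and the dimmer 3.10-fold (-1.63 ± 0.17, limma adjusted p = 0.00023). Within the shared slides, the differences were -2.41 and -2.30 for the brighter and -1.48 and -2.09 for the dimmer.

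The ID3 probes also differed in size: the log2 fold change of the brighter minus that of the dimmer was -0.69 ± 0.16 (limma adjusted p = 0.035). On its lowest array the dimmer probe was 0.87 log2 units above the weakest signal that counted as well above background on that array. The call on the difference was lost with no filter, with replicate or slide as a fixed block, and without any 1 array other than knockout replicate 2 (limma adjusted p between 0.069 and 0.20). Over the whole array 15.5% of probe pairs of a gene differed at the threshold. Of the 15 pairs of member probes, the ID3 and POU2F1 pairs were the 2 that did, and all 15 had the same sign on both probes, as did 88.0% of all pairs.

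ID3 was lower on a chromosome where most tested genes were called higher. Of 64 other tested named genes on its chromosome, 50 were called higher and 5 lower, with a median log2 fold change of 0.52, and only 1 was lower than ID3. None of its 10 nearest tested named genes was called lower and 6 were called higher. FAM76A, next to it, had a log2 fold change of 0.81 and TAF12, on the other side, 0.24.

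MYB, a factor of dividing blood progenitors that is needed for early B cell development in mice, was lower by all 4 of its probes. The brightest (A_87_P283743) stood at 0.19, 0.26 and 0.32 in wild type and at -0.76, -0.78 and -0.83 in the knockout. The next (A_87_P055876) stood at -3.05, -3.15 and -3.10 in wild type and at -4.05, -4.20 and -4.25 in the knockout. The distance between the groups was many times the spread within them on both. The brightest probe fell 2.07-fold (log2 fold change -1.05 ± 0.05, limma adjusted p = 5.6e-06). Over the 4 probes the log2 fold changes ran from -1.07 ± 0.06 to -0.94 ± 0.08, with limma adjusted p at or below 0.00014. No pair of them differed at the threshold (limma adjusted p between 0.37 and 0.87).

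MYB's chromosome also leaned downward, with 213 of 306 other tested named genes called lower and a median log2 fold change of -0.38. MYB lay below most of them: 32 of the 306 had a lower value. With the median of the chromosome subtracted, the brightest probe was still called lower, at -0.65. Of its 10 nearest tested named genes, 7 were called lower and none higher, with a median log2 fold change of -0.40. The nearest on either side, MTFR2 and the kinase gene SGK1, had log2 fold changes of -0.36 and -0.23. Farther out, MOXD1 fell more than MYB, with a log2 fold change of -5.75. MAP7, with no knockout array well above background, was at least 2.59-fold lower. The rest of the 10 lay above MYB.

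**Figure D2:**
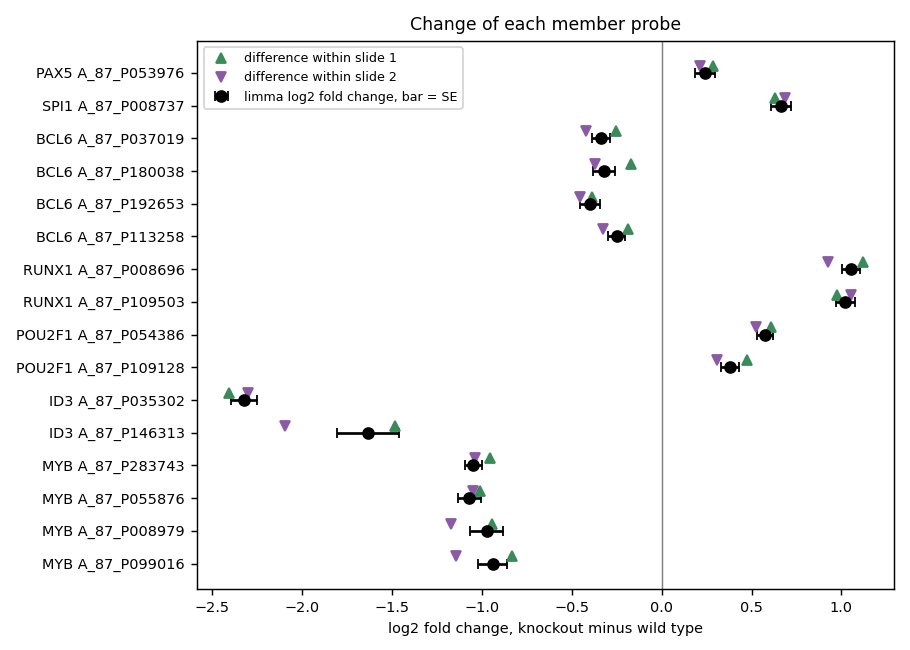
Log2 fold change, knockout minus wild type, for each of the 16 probes of the 7 genes, with limma standard errors as bars and the differences within the 2 shared slides as triangles. Probes of a gene lie together, and the ID3 probes, at -2.32 and -1.63, are the farthest apart.

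Ordered by the log2 fold change of the brightest probe, the genes ran RUNX1, SPI1, POU2F1, PAX5, BCL6, MYB and ID3. SPI1 and POU2F1 differed by 0.09, against a combined standard error of 0.07, so their order is not settled. The other neighbours in the order differed by 0.33 (POU2F1 and PAX5) to 1.27 (MYB and ID3), each at least 4 times its combined standard error. The combined standard errors treat fold changes from the same 6 arrays as independent. PAX5 and BCL6 changed places once the medians of their chromosomes were subtracted (0.09 and 0.31). All of these comparisons are between fold changes, and the levels of different probes were not compared.

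For the risen genes the chromosomes differed less from the array as a whole. RUNX1 and POU2F1 share a chromosome with 542 other tested named genes, whose median log2 fold change was 0.09, and RUNX1 lay above 509 of them and POU2F1 above 466. Next to RUNX1, MRPS6 was not called (0.09, limma adjusted p = 0.20) and SETD4 was lower (-0.65). Beside POU2F1, CD247, which encodes a T cell receptor signalling chain, was lower (-0.26) and ZFP92 higher (1.46).

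SPI1 exceeded 268 of 295 on its chromosome, where the median was 0.09. Its neighbour SLC39A13 was higher (0.25), while NR1H3, a sterol-sensing nuclear receptor, was not called (0.06, limma adjusted p = 0.39). PAX5, with 0.24 against a chromosome median of 0.16, lay above 99 of 163. The gene before PAX5 in the order of tested named genes, SNX24, fell 12.8-fold (log2 fold change -3.68, limma adjusted p = 5.5e-07). The one after it, MELK, stood at 0.13 (limma adjusted p = 0.039).

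**Figure D3:**
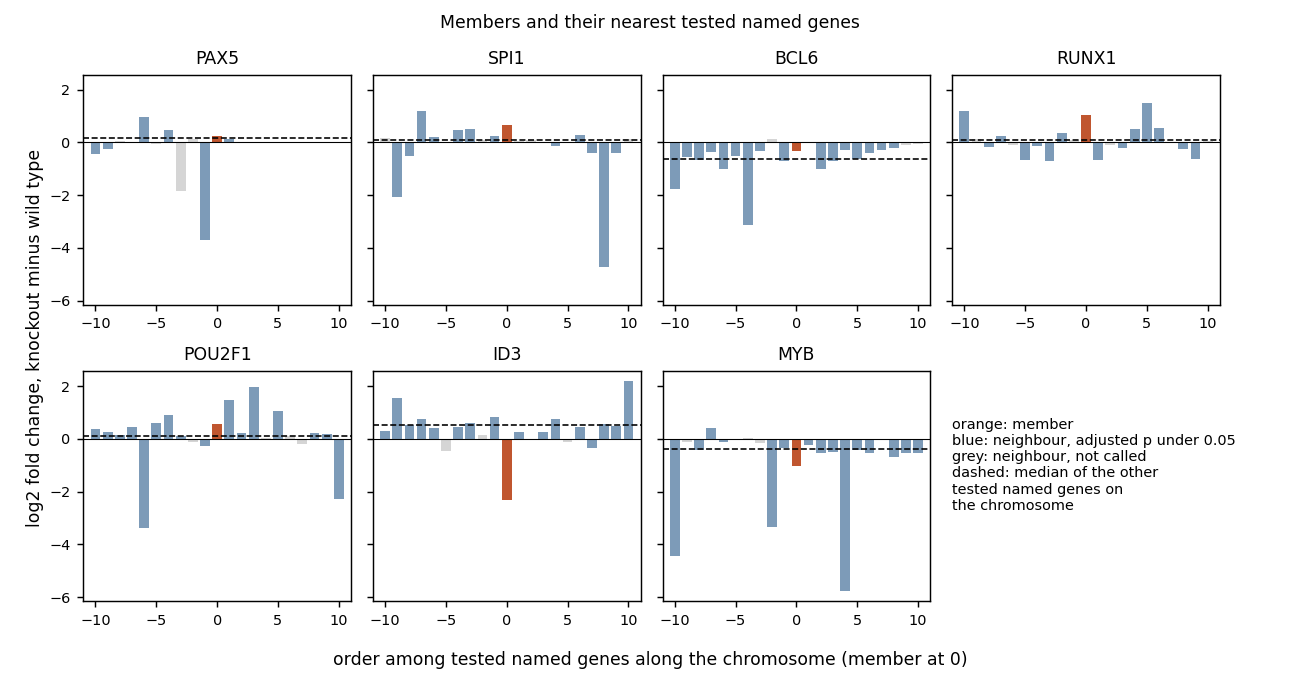
Log2 fold change of each gene (orange, at 0) and of up to 10 tested named genes on each side in the order of the chromosome, in blue where called and grey where not, with the median of the chromosome's other tested named genes dashed. BCL6 lies above its dashed line of -0.65, and ID3 far below its line of 0.52.

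The partners, cofactors and known targets of the 7 factors were followed through 14 lists of 111 distinct symbols, of which 59 had a tested probe. Of these, 25 were called higher, 18 lower and 16 neither, so 72.9% were called, near the 70.3% of all 3833 tested named genes (38.5% higher and 31.8% lower). Their median log2 fold change was 0.11, against 0.05 over all tested named genes. The 18 lower include IRF4, the gene that was knocked out. The 25 higher include SPI1, itself among the 7 factors, as a RUNX1 target. As a whole the listed genes were called about as often as any others, and individual genes of the lists are described for their size.

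E proteins and ID proteins, the binding partners and relatives of ID3, held changes in both directions. Of 5 tested, ID1 rose 1.71-fold (log2 fold change 0.77 ± 0.05, limma adjusted p = 2.9e-05), ID2 fell 1.30-fold (-0.38 ± 0.06, limma adjusted p = 0.0012) and 3 were not called. After subtracting the median of its chromosome, ID2 stood at 0.0204 and was not called (limma adjusted p = 0.76). TCF3, which encodes the E proteins E12 and E47, stood at -0.09 ± 0.03 (limma adjusted p = 0.056) and was called lower under 5 other settings (-0.19 to -0.11), among them median centring (limma adjusted p = 0.0072). TCF12 stood at 0.02 (limma adjusted p = 0.71), with probes called in opposite directions, and ID4 at 0.11 (limma adjusted p = 0.22). The median of the list was 0.02.

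Of 4 tested E protein targets, 2 were higher and 2 lower. DNTT, the polymerase that adds untemplated bases at immunoglobulin joins, rose 3.46-fold (1.79 ± 0.09, limma adjusted p = 1.0e-05). CDKN1A, the cell cycle inhibitor p21, fell 2.87-fold (-1.52 ± 0.20, limma adjusted p = 0.00073).

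Among 7 tested early B cell factors beside PAX5, 5 were higher, 1 lower and 1 not called, with a median of 0.27. SOX4, needed for pro-B cells in mice, rose 6.78-fold (2.76 ± 0.07, limma adjusted p = 6.5e-07). IKZF1, which encodes Ikaros, rose 1.41-fold (0.50 ± 0.04, limma adjusted p = 0.00011) and FOXP1 1.24-fold (0.31, limma adjusted p = 0.00087). EBF1, which acts with PAX5 in B lineage commitment, rose 1.18-fold (0.23 ± 0.05, limma adjusted p = 0.0090), a call lost with slide as a fixed block (limma adjusted p = 0.079) or after subtracting the median of its chromosome (limma adjusted p = 0.11). FOXO1 stood at -0.16 ± 0.05 (limma adjusted p = 0.026), with probes called in opposite directions, and its call was lost without wild-type replicate 1 (limma adjusted p = 0.073) or knockout replicate 2 (limma adjusted p = 0.062).

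Of 5 tested genes that PAX5 activates in mammals, 3 were higher, 1 lower and 1 not called. CD72, which encodes a B cell surface inhibitor and is also a target of PU.1, rose 9.24-fold (3.21 ± 0.06, limma adjusted p = 2.5e-07). NEDD9, an adhesion docking protein gene, fell 1.97-fold (-0.98 ± 0.06, limma adjusted p = 1.7e-05). SH2D6, which stood in for BLNK through a synonym only and may not be that gene, rose 1.52-fold (0.60 ± 0.04, limma adjusted p = 4.6e-05).

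Of 4 tested genes that PAX5 represses, 2 were higher, 1 lower and 1 not called. JCHAIN, the joining chain of secreted immunoglobulin, rose 1.54-fold (0.63 ± 0.05, limma adjusted p = 6.7e-05). The adaptor gene GRAP2 stood at 0.56 ± 0.15 (limma adjusted p = 0.017), a call lost without wild-type replicate 1 (limma adjusted p = 0.054) or 2 (limma adjusted p = 0.0501). CCR2, a chemokine receptor gene, fell 1.88-fold (-0.91 ± 0.10, limma adjusted p = 0.00023). Both were faint: GRAP2 was well above background on only 2 wild-type arrays and CCR2 on only 2 knockout arrays. With only probes above background on all 6 arrays, neither was tested, and the list held 1 gene called higher and 0 lower.

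Of 8 tested ETS and IRF factors, the family members and partners of SPI1, 3 were higher, 1 lower and 4 not called. IRF8, which like IRF4 binds DNA together with PU.1, rose 2.30-fold (1.20 ± 0.05, limma adjusted p = 3.0e-06). ETS1 rose 1.64-fold (0.72 ± 0.06, limma adjusted p = 7.4e-05). ETS2 did not stand well above background in any wild-type array and entered the test through its knockout arrays alone. Its signal was at least 2.31-fold higher without IRF4. The limma adjusted p of 3.3e-05 belongs to the measured signals, among them wild-type signals not well above background, and not to this bound. IRF4 was the 1 that fell, and ELF1, FLI1, ETV6 and GABPA were not called.

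Of 5 tested PU.1 targets, CD72 and TLR4 rose, CYBB and PTPRC were called lower and BTK was not called (-0.09, limma adjusted p = 0.28). TLR4, a receptor for bacterial lipopolysaccharide, rose 3.10-fold (1.63 ± 0.09, limma adjusted p = 1.8e-05). CYBB, a subunit of the phagocyte oxidase, fell 1.20-fold (-0.27 ± 0.06, limma adjusted p = 0.0085). PTPRC, the CD45 phosphatase, stood at -0.16 ± 0.05 (limma adjusted p = 0.033). That call was lost without wild-type replicate 2 or 3 or knockout replicate 2 or 3, with no filter and with replicate or slide as a fixed block (limma adjusted p between 0.064 and 0.20).

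For RUNX1, CBFA2T3, a corepressor gene of the family that fuses with RUNX1 in leukaemia, rose 2.43-fold (1.28 ± 0.12, limma adjusted p = 0.00016). CBFB, the obligate partner subunit of RUNX proteins, stood at 0.11 ± 0.04 (limma adjusted p = 0.062). It was called higher with quantile normalization (0.12, limma adjusted p = 0.030), in the authors' processed table (0.12, limma adjusted p = 0.028), without wild-type replicate 1 (0.13, limma adjusted p = 0.049) and by the mean of its probes (0.33, limma adjusted p = 0.00038). Relative to its chromosome's median its sign turned (-0.0119, limma adjusted p = 0.79). CBFA2T2, the third that was tested, was not called. Among the RUNX1 targets, SPI1 and EBF1 were higher, as given above.

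POU2AF1, the B cell coactivator of octamer factors, stood at 0.02 ± 0.06 (limma adjusted p = 0.78), and its sign turned under 7 other settings and without wild-type replicate 2 or knockout replicate 2. By the mean of its probes it was called lower (-0.09, limma adjusted p = 0.0498). POU2F1 was thus higher while no change in this coactivator was settled.

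BCL6 acts through corepressors, of which 3 were tested. HDAC4 rose 1.86-fold (0.89 ± 0.05, limma adjusted p = 1.3e-05) and NCOR1 1.40-fold (0.49 ± 0.05, limma adjusted p = 0.00031), and HDAC3 was not called (0.12, limma adjusted p = 0.051).

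Genes that BCL6 represses in mammalian B cells formed the largest list, with 15 tested, 5 called higher, 9 lower and 1 not called. Their median log2 fold change was -0.30. GPR183, a receptor that guides B cells to the outer follicle, did not stand well above background in any wild-type array. It too entered the test through its knockout arrays alone. Its signal was at least 4.74-fold higher without IRF4, and the limma adjusted p of 3.2e-05 belongs to the measured signals and not to this bound. CCND2, which encodes cyclin D2, rose 2.38-fold (1.25 ± 0.06, limma adjusted p = 7.3e-06). CD88, reached only as a synonym of CD80 and possibly not that gene, rose 3.86-fold (1.95 ± 0.08, limma adjusted p = 3.6e-06). On the other side, CD44, an adhesion receptor for hyaluronan, fell 3.69-fold (-1.88 ± 0.07, limma adjusted p = 2.7e-06), and CDKN1A and IRF4 belong to this list too. The list thus held members far apart in both directions.

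MYB's relative MYBL2, a cell cycle factor, fell 1.68-fold (-0.75 ± 0.05, limma adjusted p = 2.2e-05). Of 6 tested MYB targets, 2 were higher, 3 lower and 1 not called, with a median of -0.11. BCL2, the survival factor, rose 2.10-fold (1.07 ± 0.05, limma adjusted p = 6.4e-06) and ADA, adenosine deaminase, 1.17-fold (0.23 ± 0.04, limma adjusted p = 0.0021).

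LYZ, the lysozyme gene that MYB activates in chicken myeloid cells, fell 3.24-fold (-1.69 ± 0.07, limma adjusted p = 1.7e-05) with 2 knockout arrays, since its spot on knockout replicate 1 was flagged as an outlier. With that spot kept it was not called (-1.08, limma adjusted p = 0.10). A dimmer LYZ probe (A_87_P144483) stood at -4.61, -4.43 and -4.51 in wild type and at -7.95, -8.29 and -8.28 in the knockout, where it was not well above background on any of the 3 arrays. MYC fell 1.23-fold (-0.30 ± 0.05, limma adjusted p = 0.0020) and CCNB1, which encodes cyclin B1, 1.22-fold (-0.28 ± 0.06, limma adjusted p = 0.0072). Relative to its chromosome's median MYC stood at 0.13 and was not called (limma adjusted p = 0.059).

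**Figure D4:**
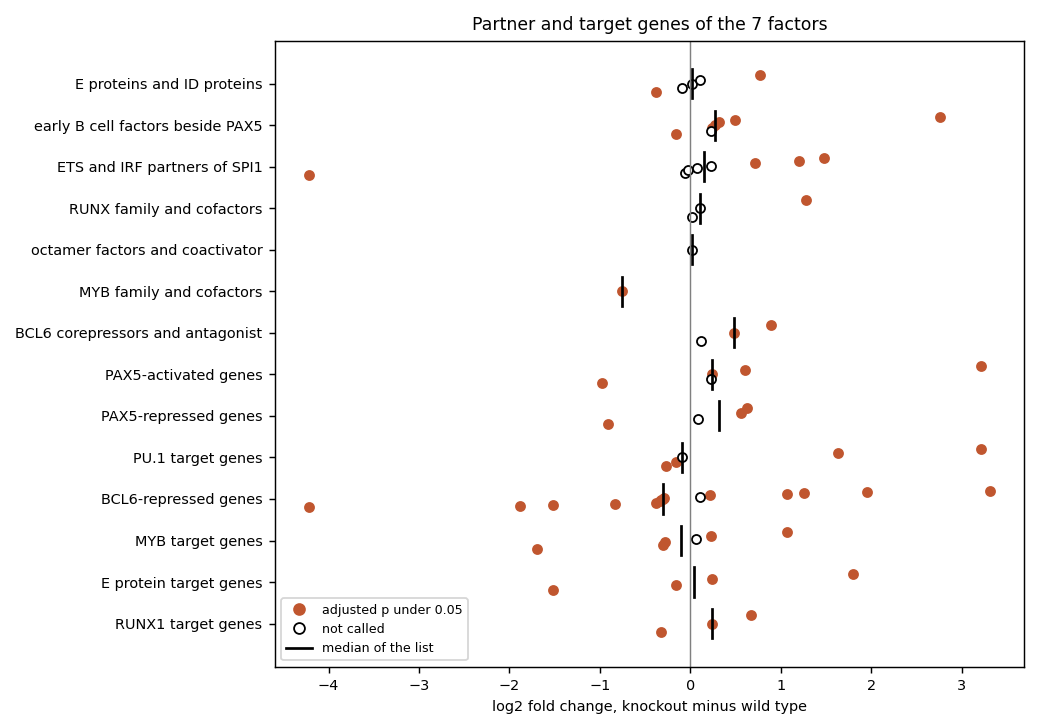
Log2 fold change, knockout minus wild type, of the tested genes in 14 lists of partners and targets of the 7 factors, filled where called, open where not, with the list median as a bar. Most lists hold called genes on both sides of 0, and the BCL6-repressed genes have 5 to the right and 9 to the left.

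For each factor, the 2 named genes whose profile was closest over the 6 arrays were found by the root mean square distance between log2 values centred on each gene's own mean, among 3832 tested named genes. These genes share the arrays, and with groups this far apart the measure mostly ranks similar fold changes. ID3 lay closest to SAMSN1 (distance 0.060, log2 fold change -2.28), an adaptor that dampens B cell activation, and to BAK1 (0.067, -2.38), a pore-forming apoptosis protein. MYB lay closest to FNDC3A (0.037, -1.03) and EDARADD (0.043), and BCL6 to RSU1 (0.025, -0.34) and SMIM19 (0.029, -0.35).

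Among the risen genes, RUNX1 lay closest to the lipoprotein receptor gene LRP8 (distance 0.051, log2 fold change 1.03) and to GHRL (0.053, 0.97), which encodes ghrelin. SPI1 lay closest to SLC25A6 (0.031, 0.68), a mitochondrial nucleotide carrier gene, and to BTBD10 (0.037, 0.64). POU2F1 was matched by PI4KA (0.016, 0.58), a phosphatidylinositol kinase gene, and SH2D6 (0.017, 0.60), and PAX5 by DBI (0.019, 0.24) and MAN1C1 (0.029, 0.27). The fold changes of RSU1 and MAN1C1 turned sign once the medians of their chromosomes were subtracted. None of these 14 genes was a member of the 7.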

How the data were processed

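Total RNA of 6 cultures received a single Cy3 label, per the labels' protocols (a separate label field reads biotin). Per the file headers, Agilent chicken arrays of 45220 spots were read with Feature Extraction 10.7.1.1. The deposited intensity values used were background-subtracted green signals, not scaled between arrays. The deposited codes of 0 and 1 flagged spots above background and outlier spots. The authors' processed table also held linear intensity values and served as an alternative; limma and R 2.12.0 appear in the submitters' processing notes without their roles.

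Signals were taken as log2 minus each array's 75th percentile. Control spots and outlier-flagged spots were dropped, and a probe entered the test if all 3 arrays of 1 group or of both had it well above background. Accessions were looked up in RefSeq (assembly GRCg7b), which named 24.5% of probes. That assembly differs from the array's, so it served for names, chromosome and gene order only. Genes in lists were represented by their brightest probe. Knockout was compared with wild type probe by probe by lmFit and eBayes of limma 3.58.1, run under R 4.3.3, two-sided and Benjamini-Hochberg adjusted over 28761 probes, with a threshold of 0.05. The same fit was run on differences between probes of 1 gene (7928 pairs). The fit was tested on simulated data with 200 changed probes, 50 of each size. It recovered 8% of changes of 0.25 log2 units, 60% of 0.5, 90% of 1 and 98% of 2. Far more probes were called on the real arrays, so the shares recovered there may differ. For a probe without any array well above background in a group, folds are bounds ("at least"): the dimmer group enters as its mean of, per array, the higher of its own signal and the lowest signal well above background.

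Replicates were separate cultures; signal over background and the 3 arrays in each group limit the precision. The slides were 4, and 2 of them held 1 array of each group. Slides 3 and 4 each held a single array. With slide as a fixed block, the group difference therefore rests on the 2 shared slides, so calls lost there may reflect fewer arrays. Named genes were the 7 with all probes, IRF4, up to 3 largest called rises and falls in each partner or target list, a few partners whatever their result, and the 2 closest profiles to each gene. Neighbouring genes were taken by position. TCF12, ID4, BTK, HDAC3, ELF1, FLI1, ETV6, GABPA, CBFA2T2, MAP7, MOXD1 and the marker genes were named outside that rule, after their values were seen. The members, lists and alternatives were chosen with earlier results of these data known. Alternatives were other background correction, scaling, filters, blocks for replicate or slide, each array left out, flagged spots kept, each chromosome's median subtracted, 1 feature a gene and the mean of a gene's probes. Some named genes of the lists are not reported here.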

Additional observations from a re-analysis of the deposited data

How the results depend on the processing

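The 16 member probes stayed called, 6 higher and 10 lower, under other background correction, 4 other scalings and 2 other filters. They also stayed called with the replicate block, with slide as a random block, with flagged spots kept and with each array left out. Exceptions were slide as a fixed block, with 8 lower, and the chromosome's median subtracted, with 9 higher and 6 lower. Counted as 1 feature a gene or as the mean of a gene's probes, 4 genes were higher and 3 lower. The member probe pairs called numbered 6 with normexp, 1 with no filter, 0 with replicate or with slide as a fixed block and 0 to 1 with 1 array left out. All pairs called numbered 1231, 345 with slide as a fixed block and 796 to 996 with 1 array left out, the lowest without wild-type replicate 3. Replicate 1 of both groups shared a slide, as did replicate 2. Deviations of same-number arrays from their group means correlated at -0.012 to -0.008, so no shared replicate effect was seen. With the replicate block all 16 member probes kept their calls (11104 probes of the array higher, 8170 lower), and the ID3 and POU2F1 pairs and PTPRC (adjusted p = 0.066) lost theirs. A random slide block changed none of these 3 calls.

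Over all probes, 11635 were higher and 8523 lower (57.7% of calls higher). Median centring shifted the array's median by -0.09 and gave 9275 and 10275 (47.4% higher). Subtracting the chromosome's median, which left only the 8284 probes with a placed gene, gave 2781 and 2804. That setting turned the sign of BCL6 (0.31, 0.33, 0.25 and 0.40 by probe), ID2 (0.0204), MYC (0.13), RSU1 (0.089), MAN1C1 (-0.27) and CBFB (-0.0119), and it took the call of PAX5 (adjusted p = 0.19), EBF1 (adjusted p = 0.11) and DBI (adjusted p = 0.063). The sign of POU2AF1 turned there (-0.11), with normexp (-0.0066), median centring (-0.0704), the percentile over detected probes (-0.00020), quantile normalization (-0.0761), the authors' table (-0.0774), the mean of probes (-0.0885), and without wild-type replicate 2 or knockout replicate 2 (-0.0178 and -0.00865). The RUNX1 probe difference ran from -0.0167 to 0.12 with 1 array left out, turning without wild-type replicate 1 (-0.0167) or 3 (-0.00918). Over 22 settings ID3's brighter probe ranged from -2.86 to -1.98, MYB's brightest from -1.14 to -0.65, and RUNX1's brighter from 0.93 to 1.12. LYZ lost its call in the authors' table (adjusted p = 0.093) and with flagged spots kept. A fixed slide block took the call of ADA (adjusted p = 0.052) and of FOXO1 (adjusted p = 0.077), and FOXO1 also lost it with no filter (adjusted p = 0.066). GRAP2 lost its call with quantile normalization (adjusted p = 0.063) and in the authors' table (adjusted p = 0.065). The causes of these changes were not tested.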
